A study of Homo sapiens with 5 samples.

Results

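The Rab GTPases are the largest branch of the Ras superfamily of small GTPases. Their genes were taken from the deposited abundance table by symbol, as RAB followed by a number and at most 1 letter and 1 digit, without hyphenated genes and without effectors or regulators such as RAB3GAP1 or RAB11FIP1. This gave 42 genes of 10504, and 21 further GENCODE symbols of this form were not analysed here. The study measured RNA by RNA-seq and ribosome footprints by Ribo-seq (sequencing of the mRNA fragments that ribosomes protect from nuclease) in HEK293A, a subline of the human HEK293 kidney line. Cells received siRNA against IRE1α (siIRE1a) or control siRNA (siCon), and both groups went through starvation before fetal bovine serum was added. The labels list 2 siIRE1a libraries, 2 siCon libraries and 1 multiplexed Ribo-seq library for both groups. Their descriptions name RNA-seq for the siCon libraries and Ribo-seq for the siIRE1a libraries, whereas the abundance table has RNA and footprint columns for both groups. The values below follow the table's columns, and if the descriptions were right, group and assay could not be told apart. The labels do not say whether replicates were separate cultures, so p-values measure the spread between these samples, which may be technical. No group without serum is among the samples.

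A Rab protein is a switch: bound to GTP it sits on the membrane of 1 kind of vesicle or organelle and recruits effectors such as tethers and motor proteins, and bound to GDP it is extracted into the cytosol. Exchange factors load GTP, GTPase-activating proteins end the active state, and lipid added to the end of the protein anchors it. Rabs mark different steps of membrane traffic, and some paralogs share a step. The family as a whole covers the route through the endoplasmic reticulum (ER), Golgi, endosomes, lysosomes and plasma membrane. IRE1α is a stress sensor in the ER membrane, where the secretory route begins.

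The tables give 1 RNA value and 1 footprint value per gene and group, so no spread between replicates stands behind an RNA or footprint value, and differences in them are values with no test. Translational efficiency (TE) is the footprint value divided by the RNA value. For TE the authors' deposited table gives a log2 change, siIRE1a over siCon, and an adjusted p. A gene is said below to have risen or fallen in TE where that p was under 0.05. The unit of the abundances is not stated. Over 10442 genes the siIRE1a and siCon footprint values were lower for longer coding sequences (Spearman's rho −0.51 in both groups). For RNA values the relation was weaker, with rho −0.22 in siIRE1a and −0.25 in siCon cells. Sequencing yielded 34172898 to 49112701 clusters per siIRE1a library and 28769136 to 31876615 per siCon library, and the reads behind each gene are unknown. ERN1, which encodes IRE1α, had RNA values of 0.0736 in siIRE1a and 0.121 in siCon cells and footprints of 0.275 in siIRE1a and 0.402 in siCon cells.

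TE rose for 8 of the 38 Rab genes that had an adjusted p (21.1%), against 5.9% of all 8878 genes with one. These were RAB22A, RAB21, RAB10, RAB11A, RAB14, RAB18, RAB6A and RAB6C. TE fell for 0 of the 38, against 4.62% of all genes. At an unadjusted p under 0.05, back-calculated from the authors' adjusted values, 11 Rab genes were higher (12.7% of all genes) and 3 were lower (13.1%). The median change in TE was 0.18 on the log2 scale over the 42 Rab genes and −0.04 over all genes. RAB3A, RAB9B, RAB28 and RAB29 had no adjusted p in the authors' deposited table.

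The RNA of the Rab genes was more often lower than higher, and their footprints moved less. RNA was lower in siIRE1a cells for 30 of 42 Rab genes, against 51.2% of all genes, with a median log2 change of −0.22 against −0.01. In bulk RNA, fewer expressing cells and less RNA per cell cannot be told apart. RNA was at least 1.5-fold lower for 8 Rab genes (6.7% of all genes) and at least 1.5-fold higher for 0 (3.86%). Footprints were lower for 33 of 42 (67.9% of all genes), but the median change of −0.11 lay near the −0.08 of all genes. With the median of all genes set to 0, footprints were lower for 22 of 42. Footprints of 2 Rab genes were at least 1.5-fold lower (0.904% of all genes) and those of 1 at least 1.5-fold higher (0.847%). In all 8 genes whose TE rose, RNA was lower, with a median change of −0.59, while the median footprint change of these 8 was −0.09. Footprints were lower in 7 of the 8 as deposited and in 4 with the median of all genes set to 0, where those of RAB22A, RAB6A and RAB10 were slightly higher. A lower RNA value raises TE by construction, since RNA is its denominator. The genes are not replicates, and these counts carry no test of the family against other genes.

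**Figure D1:**
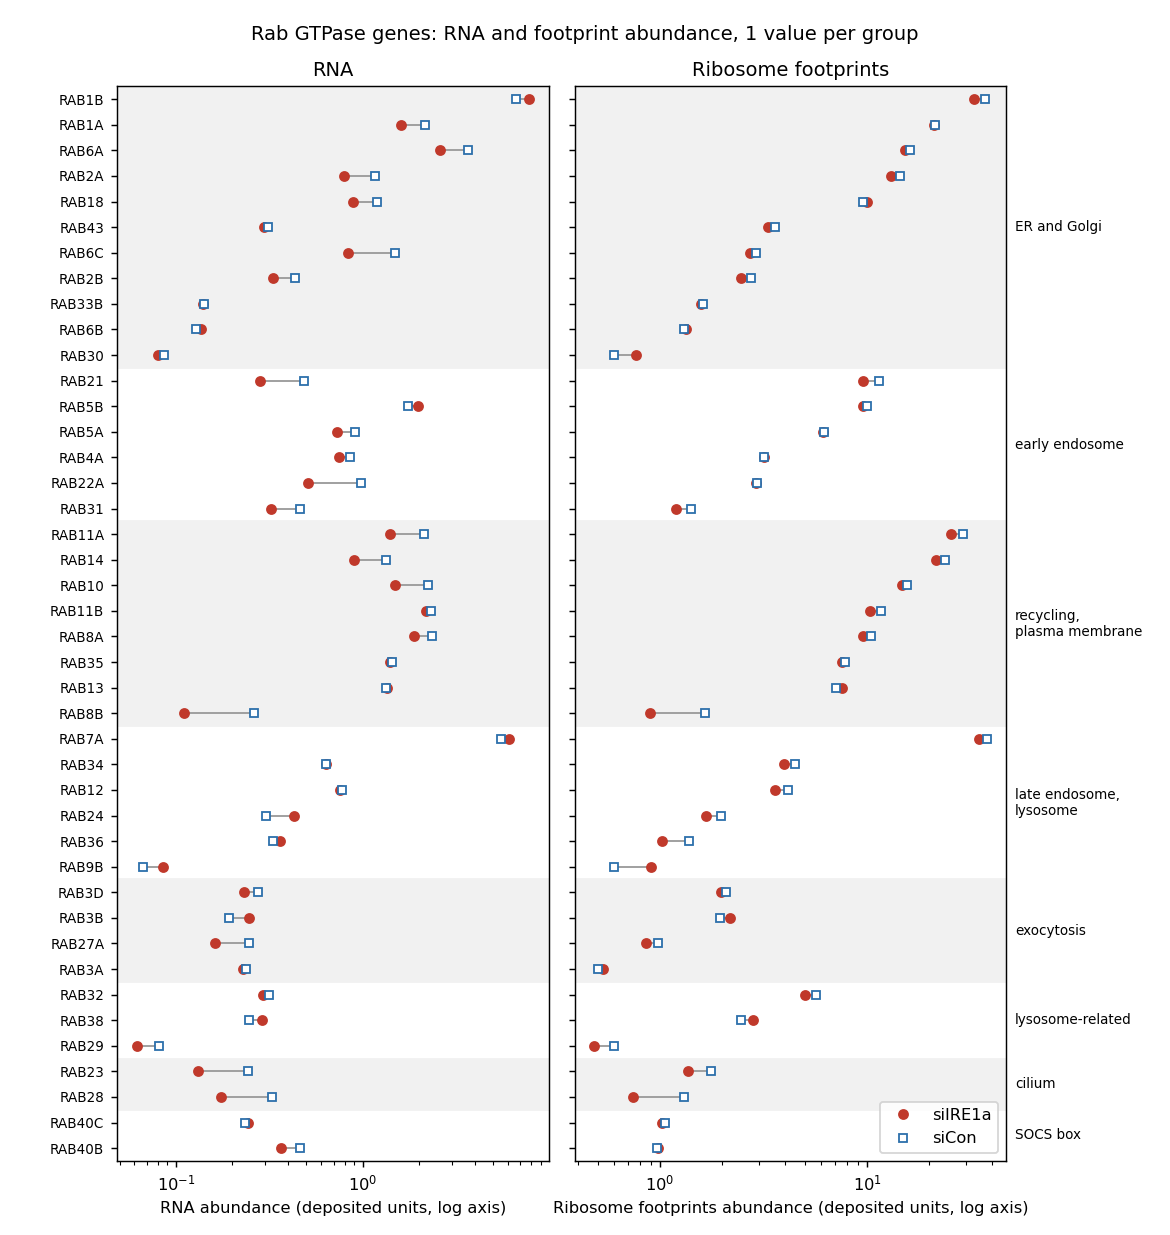
Abundance of RNA (left) and of ribosome footprints (right) of the 42 Rab GTPase genes in deposited units on a log axis, with siIRE1a as filled circles and siCon as open squares, 1 value per group. Genes are grouped by where the protein acts; the circle lies left of the square for 30 genes in RNA and 33 in footprints, and the gaps are widest for RAB8B.

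Rab abundance spanned a wide range, and a few genes made up much of it. Summed over the 42 genes, footprints came to 298 in siIRE1a and 323 in siCon cells, which was 0.405% and 0.392% of the sum over all genes. Summed RNA came to 41.6 in siIRE1a and 46.8 in siCon cells. The 5 genes with the highest footprints held 45.4% of the Rab footprints in siIRE1a and 46.1% in siCon cells. In both groups their order was RAB7A, RAB1B, RAB11A, RAB14 and RAB1A.

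RAB7A, which directs late endosomes to fuse with lysosomes, had footprint values of 34.8 in siIRE1a and 37.8 in siCon cells. RAB1B, which acts in transport of vesicles between ER and Golgi, had footprint values of 32.7 in siIRE1a and 37.2 in siCon cells. These genes also had the most Rab RNA: RAB1B had 7.79 in siIRE1a and 6.66 in siCon cells, and RAB7A had 6.08 in siIRE1a and 5.49 in siCon cells. Both thus had more RNA and fewer footprints in siIRE1a cells, the reverse of the RNA direction in most of the family. The low end was held by RAB3A, RAB29, RAB30 and RAB9B, with siCon footprints between 0.501 and 0.600.

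The ratio of footprints to RNA differed more than 10-fold among Rab genes within a group. The median TE over the 42 genes was 6.79 in siIRE1a and 6.64 in siCon cells, against 4.62 and 4.70 over all genes. In siCon cells 30 of the 42 lay above the median of all genes. The highest ratio was that of RAB21, at 33.9 in siIRE1a and 23.4 in siCon cells. The lowest were 2.34 for RAB3A in siIRE1a cells and 1.95 for RAB6C in siCon cells. Rab coding sequences are short and alike in length, from 585 to 1002 bases with a median of 648, against 1464 for all genes. Footprint values ran with coding length more than RNA values did, and the part of length in the Rab ratios was not tested.

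**Figure D2:**
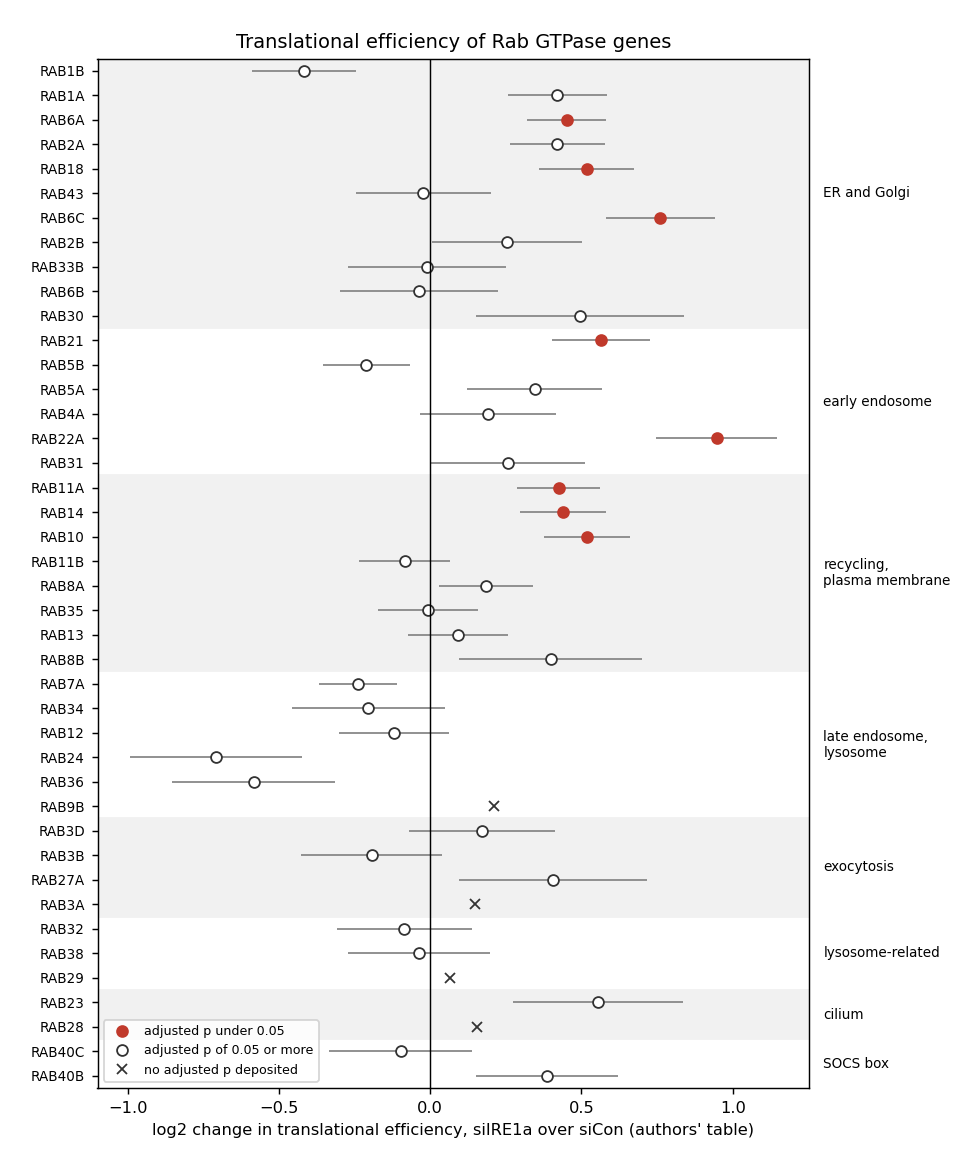
Log2 change in translational efficiency, siIRE1a over siCon, from the authors' deposited table, for the 42 Rab GTPase genes grouped by where the protein acts. Bars are 1 back-calculated standard error (for 38 genes); filled circles mark the 8 genes with an adjusted p under 0.05, all to the right of 0.

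Among the 11 Rab genes of ER and Golgi transport, 3 rose in TE (27.3%, against 21.1% of tested Rab genes and 5.9% of all genes). Such numbers of genes, here and below, are too small to set 1 role against another. RAB6A, which acts in traffic from Golgi to ER and within the Golgi, had RNA values of 2.60 in siIRE1a and 3.67 in siCon cells. Its footprints were 15.3 in siIRE1a and 16.0 in siCon cells, and its TE rose by 0.45 on the log2 scale in the authors' deposited table (adjusted p = 0.012, with a standard error of 0.13 back-calculated from it). RNA was lower by more than footprints were. RAB18, found on the ER and on lipid droplets, had RNA values of 0.887 in siIRE1a and 1.20 in siCon cells. Its footprints were 9.99 in siIRE1a and 9.58 in siCon cells, and its TE rose by 0.52 in the authors' deposited table (adjusted p = 0.0183). RAB18 was the 1 gene of the 8 with more footprints in siIRE1a cells in the values as deposited.

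RAB6C is a retrogene, an intronless copy that arose from an mRNA of its paralog RAB6A. It had RNA values of 0.836 in siIRE1a and 1.499 in siCon cells and footprints of 2.71 in siIRE1a and 2.92 in siCon cells. Its TE rose by 0.76 in the authors' deposited table (adjusted p = 0.0019). Of the 738 stretches of 28 bases in the RAB6C coding sequence, a length typical of footprints, 250 (33.9%) also occur in the RAB6A transcript. How reads that match both genes were counted is not stated, so the values of RAB6C and RAB6A may hold reads of each other and RAB6C is an uncertain observation.

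The other ER and Golgi members did not pass the test. RAB2A, which acts between ER and Golgi, had RNA values of 0.800 in siIRE1a and 1.17 in siCon cells and footprints of 13.1 in siIRE1a and 14.5 in siCon cells. Its TE change of 0.42 in the authors' deposited table missed the threshold (adjusted p = 0.0622). Its paralog RAB2B had footprints of 2.45 in siIRE1a and 2.76 in siCon cells, with a TE change in the authors' deposited table of 0.25 (adjusted p = 0.532). RAB30 and RAB33B, both Golgi proteins, had footprints of 0.766 and 1.58 in siIRE1a cells and of 0.600 and 1.61 in siCon cells. RAB43, also of the Golgi, had RNA values of 0.296 in siIRE1a and 0.312 in siCon cells.

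Of the 6 early endosome members 2 rose in TE (33.3%, against 21.1% of tested Rab genes and 5.9% of all genes). The largest TE change of the family was that of RAB22A. RAB22A acts in early endosomes and in recycling of cargo that enters without clathrin. Its RNA was 0.509 in siIRE1a and 0.979 in siCon cells, 1.92-fold lower, while its footprints were 2.90 in siIRE1a and 2.93 in siCon cells. Its TE rose by 0.95 in the authors' deposited table (adjusted p = 0.000327, standard error 0.199), which is 1.93-fold. RAB21, which acts in endosomal traffic of integrins, had RNA values of 0.282 in siIRE1a and 0.486 in siCon cells, 1.72-fold lower. Its footprints were 9.55 in siIRE1a and 11.4 in siCon cells, and its TE rose by 0.56 in the authors' deposited table (adjusted p = 0.012).

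RAB5A and RAB5B drive the fusion of early endosomes. RAB5A had RNA values of 0.731 in siIRE1a and 0.911 in siCon cells, and RAB5B had 1.97 in siIRE1a and 1.76 in siCon cells. Their footprints differed little: 6.09 in siIRE1a and 6.17 in siCon cells for RAB5A, and 9.60 in siIRE1a and 10.0 in siCon cells for RAB5B. The TE changes of these paralogs had opposite signs, 0.35 and −0.21, and neither passed the test in the authors' deposited table (adjusted p = 0.316 and 0.34). RAB4A, which acts in fast recycling, had RNA values of 0.751 in siIRE1a and 0.857 in siCon cells and a TE change in the authors' deposited table of 0.19 (adjusted p = 0.615). RAB31, which acts between the trans-Golgi network and endosomes, had RNA values of 0.324 in siIRE1a and 0.465 in siCon cells.

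Of the 8 members of recycling and delivery to the plasma membrane, 3 rose in TE (37.5%, against 21.1% of tested Rab genes and 5.9% of all genes). RAB10, which acts in delivery of cargo such as glucose transporters to the cell surface, had RNA values of 1.497 in siIRE1a and 2.23 in siCon cells. Its footprints were 14.8 in siIRE1a and 15.6 in siCon cells, and its TE rose by 0.52 in the authors' deposited table (adjusted p = 0.00849). RAB11A, the defining Rab of recycling endosomes, had RNA values of 1.40 in siIRE1a and 2.12 in siCon cells and footprints of 25.4 in siIRE1a and 29.1 in siCon cells. Its TE rose by 0.42 in the authors' deposited table (adjusted p = 0.028). RAB14, which acts between Golgi and endosomes, had RNA values of 0.902 in siIRE1a and 1.33 in siCon cells. Its footprints were 21.4 in siIRE1a and 23.7 in siCon cells, and its TE rose by 0.44 in the authors' deposited table (adjusted p = 0.0285).

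In these 3 genes RNA was 1.47-fold to 1.51-fold lower and footprints at most 1.15-fold lower. RAB8A and RAB8B act in exocytic traffic and cilium formation, RAB13 at tight junctions, RAB35 in fast recycling and RAB11B beside RAB11A. RAB8A had RNA values of 1.89 in siIRE1a and 2.34 in siCon cells and a TE change in the authors' deposited table of 0.18 (adjusted p = 0.459). RAB13 had RNA values of 1.35 in siIRE1a and 1.34 in siCon cells and RAB35 had 1.40 in siIRE1a and 1.44 in siCon cells, so that RNA of these genes was nearly level.

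None of the 5 tested members of late endosomes, lysosomes and autophagy passed the test (5.9% of all genes rose and 4.62% fell), a number of genes too small to set this against the groups above. The median RNA change of the 6 measured members was 0.13 and only RAB12, which acts in degradation of the transferrin receptor, was below 0. RAB24, linked to autophagy, had RNA values of 0.430 in siIRE1a and 0.303 in siCon cells and footprints of 1.67 in siIRE1a and 1.97 in siCon cells. Its TE change of −0.71 was the lowest of the family and missed the threshold in the authors' deposited table (adjusted p = 0.0876, standard error 0.285). RAB36 had footprints of 1.02 in siIRE1a and 1.38 in siCon cells and a TE change in the authors' deposited table of −0.58 (adjusted p = 0.147). RAB7A had a TE change of −0.24 (adjusted p = 0.222) and RAB34, which positions lysosomes, one of −0.21 (adjusted p = 0.632; values of the authors' deposited table). Whether this group differs from the other groups was not tested.

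The secretory vesicle Rabs, RAB3A, RAB3B, RAB3D and RAB27A, had siCon footprints from 0.501 to 2.08, with RAB3B and RAB3D just above the median of all genes (1.84). RAB3B had RNA values of 0.245 in siIRE1a and 0.192 in siCon cells, and RAB3D had 0.232 in siIRE1a and 0.275 in siCon cells. RAB3A had RNA values of 0.228 in siIRE1a and 0.238 in siCon cells. RAB27A, which acts in release of exosomes and lysosome-related vesicles, had RNA values of 0.163 in siIRE1a and 0.245 in siCon cells, 1.51-fold lower. Its TE change was 0.41 (adjusted p = 0.409 in the authors' deposited table). Of RAB32 and RAB38, which act in making lysosome-related organelles such as melanosomes, RAB32 had footprints of 5.04 in siIRE1a and 5.68 in siCon cells and RAB38 had 2.80 in siIRE1a and 2.46 in siCon cells. The ubiquitin ligase adaptors RAB40B and RAB40C, Rabs with a SOCS box, had footprints of 0.981 and 1.02 in siIRE1a cells and of 0.961 and 1.05 in siCon cells.

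RAB8B, RAB28 and RAB9B were the Rab genes whose footprints were at least 1.5-fold apart. RAB8B had footprints of 0.898 in siIRE1a and 1.64 in siCon cells, 1.83-fold lower, and RNA values of 0.110 in siIRE1a and 0.262 in siCon cells, 2.37-fold lower. RAB28, which is needed in the cilia of photoreceptors, had footprints of 0.737 in siIRE1a and 1.30 in siCon cells, 1.76-fold lower, and RNA values of 0.174 in siIRE1a and 0.326 in siCon cells. The TE change was 0.40 for RAB8B (adjusted p = 0.403) and 0.15 for RAB28, which had no adjusted p in the authors' deposited table.

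RAB23, a ciliary Rab that restrains Hedgehog signalling, had RNA values of 0.131 in siIRE1a and 0.243 in siCon cells, 1.85-fold lower, and footprints of 1.37 in siIRE1a and 1.76 in siCon cells. Its TE change of 0.55 did not pass the test in the authors' deposited table (adjusted p = 0.189). RAB9B is a paralog of RAB9A, which returns mannose 6-phosphate receptors from late endosomes. It had footprints of 0.899 in siIRE1a and 0.597 in siCon cells, 1.51-fold higher, and RNA values of 0.0851 in siIRE1a and 0.0663 in siCon cells. The values of RAB8B, RAB28, RAB23 and RAB9B are low, and adding a pseudocount of 1 brought the footprint changes of RAB8B, RAB28 and RAB9B to −0.48, −0.41 and 0.25 on the log2 scale.

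**Figure D3:**
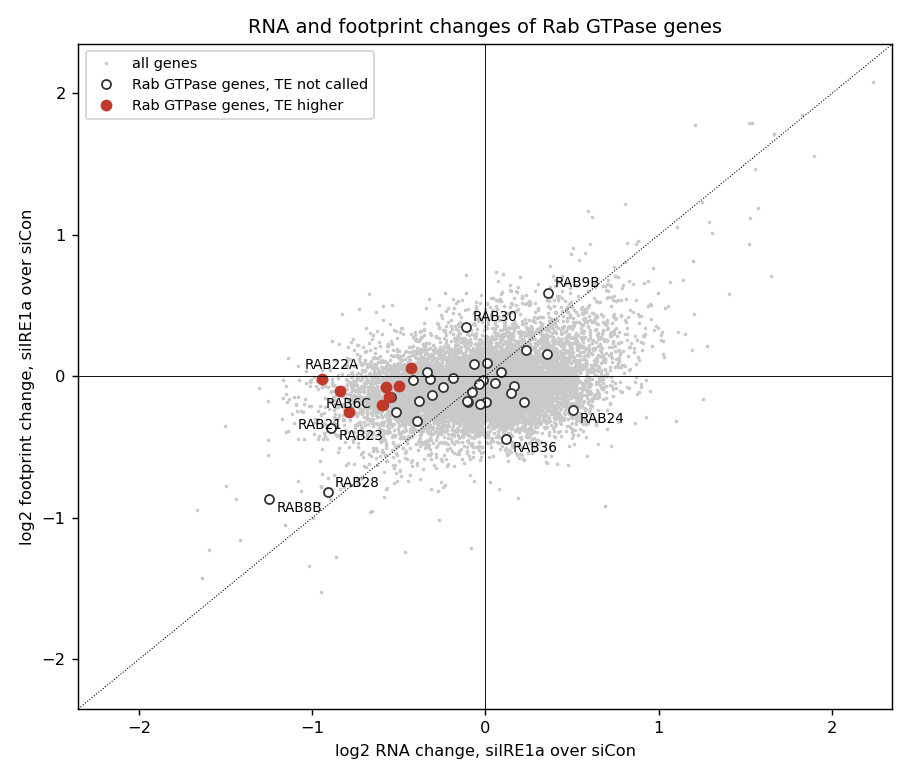
Log2 change in footprints against log2 change in RNA, siIRE1a over siCon, for all genes (grey) and the Rab GTPase genes, with the diagonal dotted where both changes are equal. The 8 Rab genes whose TE rose (filled) lie at RNA changes of −0.43 to −0.94 with footprint changes of −0.25 to 0.06, and RAB28 lies close to the diagonal, with RAB8B farthest left.

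The direction of the TE change followed the base composition of the transcript, in the Rab genes as in all genes. GC content was computed over the main GENCODE transcript of each gene. The 8 genes whose TE rose all lay below 45% GC, where 8 of 20 tested Rab genes rose (40%), against 473 of 3512 of all genes (13.5%). At 45% GC or more 0 of 18 tested Rab genes rose, against 0.903% of all genes, and 0 fell, against 7.62%. Across the 42 Rab genes Spearman's rho of GC content was −0.74 with TE change, 0.62 with RNA change and 0.01 with footprint change. Across all genes these values were −0.67, 0.63 and −0.04. The genes of a comparison share the same libraries, and the TE change holds the RNA change within it, so these values describe the pattern and carry no p.

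Below 40% GC the median RNA change was −0.55 over 13 Rab genes and −0.39 over all genes. Between 40% and 45% it was −0.52 over 9 Rab genes and −0.20 over all genes. Between 45% and 50% the order was the other way, with 0.15 over 5 Rab genes and −0.02 over all genes, and between 50% and 55% it was −0.18 over 6 Rab genes and 0.12 over all genes. At 55% and above it was 0.00 over 9 Rab genes and 0.21 over all genes. When the trend of TE change on GC content over all genes was subtracted and the rest tested again with back-calculated standard errors, 2 of the 8 Rab genes kept their call (0.884% of all genes rose and 0.442% fell). RAB22A kept 0.69 and RAB6C 0.63, both with an adjusted p of 0.044 in this normal test. The 6 others had remainders between 0.05 for RAB11A and 0.30 for RAB10. With the GC trend removed, the median RNA change was −0.21 over the 42 Rab genes and −0.002 over all genes. The median TE change was then 0.11 over the 42 Rab genes and −0.007 over all genes. What this relation to GC content comes from was not tested.

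**Figure D4:**
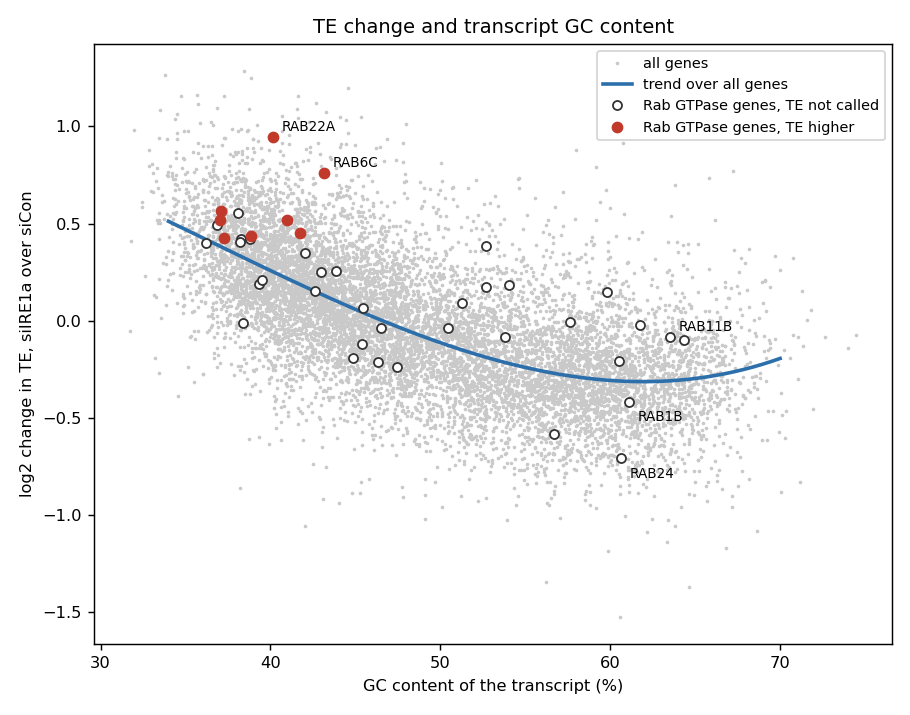
Log2 change in TE, siIRE1a over siCon, from the authors' deposited table against the GC content of the transcript for all genes (grey) and the Rab GTPase genes, with the trend over all genes as a line. The 8 Rab genes whose TE rose (filled) lie below 45% GC, and RAB22A and RAB6C lie farthest above the line among them.

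Rab paralogs allow this relation to be seen between related proteins, from 60.8% identical for RAB32 and RAB38 to 91.7% for RAB1A and RAB1B. Stretches of 20 codons from the start of the nucleotide-binding P-loop are shown for 5 pairs. These encode the same or nearly the same residues with 5 to 17 different codons. The RAB3A, RAB3B and RAB3D stretches also share 19 or 20 residues between any pair, with 5 to 8 different codons, and are not shown. RAB6C is added because it may share reads with RAB6A, and its stretch, aligned to that of RAB6A, does not match the P-loop pattern. The sequences are the coding strand 5′ to 3′ from GENCODE (GRCh38), capitals mark G or C at the third position of a codon, and the stretches start at codon 18 of RAB11A, RAB11B and RAB1A, 15 of RAB1B, RAB8A and RAB8B, 27 of RAB5A and RAB5B, and 20 of RAB6A, RAB6B and RAB6C. They lie in coding exons at chr15:65877343-65877402 (plus strand) for RAB11A, chr19:8399874-8399933 (plus) for RAB11B, chr3:19950977-19951036 (plus) for RAB5A and chr12:55987039-55987098 (plus) for RAB5B. They lie at chr19:16111944-16112003 (plus) for RAB8A, chr15:63189667-63189726 (plus) for RAB8B and chr2:129980173-129980232 (plus) for RAB6C. The others are split by 1 intron each, within chr2:65098052-65104778 (minus) for RAB1A, chr11:66271825-66272171 (plus) for RAB1B, chr11:73730777-73760578 (minus) for RAB6A and chr3:133864596-133895409 (minus) for RAB6B.
RAB11A: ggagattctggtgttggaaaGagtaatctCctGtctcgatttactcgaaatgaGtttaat
RAB11B: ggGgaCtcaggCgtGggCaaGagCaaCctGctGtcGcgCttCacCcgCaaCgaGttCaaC
RAB1A: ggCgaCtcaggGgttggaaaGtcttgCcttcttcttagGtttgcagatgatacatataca
RAB1B: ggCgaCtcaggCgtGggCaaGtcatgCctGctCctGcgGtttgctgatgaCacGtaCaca
RAB6A: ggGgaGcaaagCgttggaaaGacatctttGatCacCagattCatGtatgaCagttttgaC
RAB6B: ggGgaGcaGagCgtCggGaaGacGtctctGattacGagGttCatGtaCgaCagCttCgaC
RAB6C: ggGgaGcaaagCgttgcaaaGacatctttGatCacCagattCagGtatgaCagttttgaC
RAB5A: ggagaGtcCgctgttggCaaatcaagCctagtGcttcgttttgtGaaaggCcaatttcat
RAB5B: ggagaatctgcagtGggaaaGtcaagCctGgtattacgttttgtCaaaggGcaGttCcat
RAB8A: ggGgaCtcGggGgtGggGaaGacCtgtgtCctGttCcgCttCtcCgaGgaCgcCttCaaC
RAB8B: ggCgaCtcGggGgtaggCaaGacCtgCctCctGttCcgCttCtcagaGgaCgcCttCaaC

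The RAB11A and RAB11B stretches encode the same 20 residues, yet 17 of the codons differ, and G or C stands at the third position of 4 of 20 codons in RAB11A and 19 of 20 in RAB11B. Over the whole coding sequence the third positions were 35.5% GC in RAB11A and 87.7% in RAB11B, whose proteins are 90.4% identical. RAB11B had RNA values of 2.18 in siIRE1a and 2.34 in siCon cells and footprints of 10.3 in siIRE1a and 11.7 in siCon cells. The footprint changes of these paralogs were close, −0.20 for RAB11A and −0.18 for RAB11B, whereas their RNA changes were −0.60 and −0.10. The TE change of RAB11B was −0.08 (adjusted p = 0.78 in the authors' deposited table), so that the difference between the paralogs was 0.51 with a back-calculated standard error of 0.203. With the GC trend removed this difference was −0.17.

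RAB1A and RAB1B, with proteins 91.7% identical, had TE changes of opposite sign that did not pass the test. Their stretches encode the same 20 residues, 12 of them with different codons. RAB1A had RNA values of 1.61 in siIRE1a and 2.15 in siCon cells, and footprints of 21.0 in siIRE1a and 21.3 in siCon cells. The TE change was 0.42 for RAB1A (adjusted p = 0.0768) and −0.42 for RAB1B (adjusted p = 0.0936) in the authors' deposited table. The difference was 0.84 with a back-calculated standard error of 0.237, and 0.19 with the GC trend removed. GC content was 38.3% in the RAB1A transcript and 61.1% in that of RAB1B.

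RAB6A and RAB6B encode the same 20 residues in the stretch with 11 different codons. RAB6B had footprints of 1.34 in siIRE1a and 1.31 in siCon cells and RNA values of 0.136 in siIRE1a and 0.128 in siCon cells. Its TE change was −0.04 (adjusted p = 0.953 in the authors' deposited table), and the difference from RAB6A was 0.49 with a back-calculated standard error of 0.292. The RAB6C stretch differs from that of RAB6A by G17C and T44G only (the RAB6A base, the position counted from 1 at the 5′ end of the stretch, the RAB6C base), and both change the residue. RAB5A and RAB5B encode the same 20 residues with 13 different codons, and their TE changes differed by 0.56 with a back-calculated standard error of 0.265. G or C stands at the third position of 7 of 20 codons in RAB5A and 8 of 20 in RAB5B. With the GC trend removed the difference was 0.39 for RAB5A and RAB5B and 0.17 for RAB6A and RAB6B. RAB8A and RAB8B are both rich in G and C at the third positions here (19 and 18 of 20), although their whole transcripts have 54.1% and 36.2% GC. Their TE changes differed by −0.21 with a back-calculated standard error of 0.34, and this difference was not tested. With the GC trend removed the difference between RAB8A and RAB8B was 0.42.

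Over 9 pairs of paralogs, which leave out the RAB3 genes and RAB6C and are namely RAB1A and RAB1B, RAB2A and RAB2B, RAB5A and RAB5B, RAB6A and RAB6B, RAB8A and RAB8B, RAB11A and RAB11B, RAB22A and RAB31, RAB32 and RAB38, and RAB40B and RAB40C, the member with fewer G or C at the third positions had the higher TE change in 8. The exception was RAB32 and RAB38, whose TE changes were −0.09 and −0.04. Over the whole transcript the order of these paralogs was the other way, with 53.8% GC in RAB32 and 46.5% in RAB38. In 7 of the 9 pairs the difference in TE change was smaller with the GC trend removed. Outside these pairs, RAB3B had fewer G or C at the third positions (66.8%) than RAB3A (81.0%) and RAB3D (77.3%), and its TE change of −0.19 was below their 0.15 and 0.17. RAB6A likewise had fewer than RAB6C (44.5% and 47.8%) and the smaller TE change. Over all 14 pairs of measured paralogs the member with fewer had the higher TE change in 10. Between the paralogs of the 9 pairs, no stretch of 28 bases was shared, except for 34 in RAB40B and RAB40C.

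**Figure D5:**
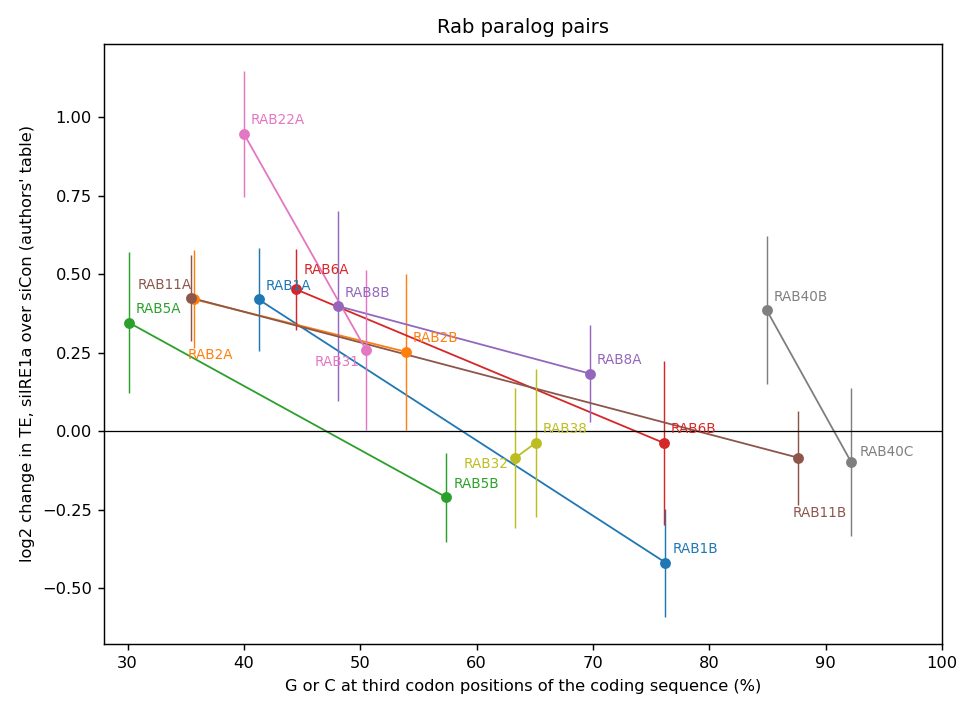
Log2 change in TE, siIRE1a over siCon, from the authors' deposited table against the share of G or C at the third codon positions of the coding sequence for 9 pairs of Rab paralogs, each pair joined by a line. Bars are 1 back-calculated standard error; the line falls to the right in 8 pairs and rises slightly for RAB32 and RAB38.

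The 3′ UTRs of the Rab genes were also searched for GGACCTA and GACCTAA (transcript strand, the 7-mers overlapping by 6 bases). An earlier scan of these same data had picked these 7-mers from the footprint changes, so they are no independent evidence. Of 10219 genes whose 3′ UTR had 50 bases or more, 926 held a match (9.06%), and their median footprint change was −0.14 against −0.08 for the others. Among the 42 Rab genes 5 held a match (11.9%). These shares are not corrected for length: the median 3′ UTR had 2394.5 bases over the Rab genes and 1191 over all genes. They are shown with the match in capitals, at the position in the 3′ UTR counted from its start (225 in RAB8B, 2793 in RAB23, 7524 in RAB22A, 475 in RAB38 and 8131 in RAB3B), because RAB8B had the lowest footprint change of the family.
RAB8B: cacatgcaGGACCTAActcgtttt
RAB23: tggccttaGGACCTAAtgtcccaa
RAB22A: cttgggctGGACCTAAgtgtatgt
RAB38: tctcggcaGACCTAAgagttgcct
RAB3B: aaaaagctGGACCTAttctttttc

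Footprint changes of these 5 genes were −0.87 for RAB8B, −0.37 for RAB23, −0.02 for RAB22A, 0.19 for RAB38 and 0.16 for RAB3B. A match was thus found both in the gene with the lowest footprint change and in genes with higher footprints. RAB28, with the next lowest footprint change, held no match. A match of letters does not show that a small RNA binds there, and its part in the values was not tested.

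Among the partners of Rab proteins, the numbers called in TE were too small to set against the shares over all genes. The 7 tested genes of prenylation and membrane delivery load Rabs with their lipid tails and return them to membranes. None had an adjusted p under 0.05 in the authors' deposited table (5.9% of all genes rose and 4.62% fell). By a back-calculated unadjusted p under 0.05, 1 was higher (12.7% of all genes) and 1 lower (13.1%). Of 37 tested exchange factors 1 rose and 0 fell (5.9% and 4.62% of all genes). It was MON1B, part of the exchange factor of RAB7A, with footprints of 0.912 in siIRE1a and 0.797 in siCon cells and a TE change in the authors' deposited table of 0.72 (adjusted p = 0.0192). Of 33 tested GTPase-activating proteins 1 rose and 0 fell (5.9% and 4.62% of all genes). The gene that rose was TBC1D15, which acts on RAB7A (0.61, adjusted p = 0.0132 in the authors' deposited table). Of 35 tested effectors 0 rose and 1 fell (5.9% and 4.62% of all genes). The gene that fell encodes the Golgi matrix protein GOLGA2 (−0.63, adjusted p = 0.0388 in the authors' deposited table). Median RNA changes were 0.01 for prenylation and delivery, 0.01 for exchange factors, −0.04 for GTPase-activating proteins and 0.04 for effectors, against −0.22 for the Rab genes. Median GC content of these lists was 44.3%, 48.3%, 49.6% and 47.5%, against 44.4% for the Rab genes and 47.9% for all genes.

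RAS GTPases are relatives of the Rab genes that act in growth signalling and adhesion. Of 16 tested RAS genes 2 rose in TE and 0 fell (5.9% and 4.62% of all genes). Their RNA change was −0.39 and their GC content 41.8% at the median. The 2 that rose were RAP2A (0.71) and RAP2B (0.48), as log2 TE changes in the authors' deposited table. These lists are described by counts alone, and no difference between them and the Rab genes was tested.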

How the data were processed

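Abundance values were deposited by the authors as numbers of unstated unit, 1 value per gene, group and assay, and the authors' TE columns are the ratio of footprint to RNA abundance, equal to that quotient for every gene within 1.51e-14 of its value. The log2 change in TE and its adjusted p-value were deposited by the authors in a table named after DESeq2. Model, counting of reads, strand and combination of replicates are not given in the sources used here. Counts of clusters and mean base quality scores per library were deposited in a run summary. Per the submitters' processing notes the genome was hg19 (GRCh37) and Bowtie 1.1.2 was used.

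Of 10522 entries, 9 symbols that occur on more than 1 row were left out. RNA and footprint changes are log2 of siIRE1a over siCon with no pseudocount, since every value was above 0. Standard errors of the TE change were back-calculated from the authors' adjusted p-values, assuming a two-sided normal test and Benjamini-Hochberg adjustment over 8878 genes (for genes at a recovered p of at least 0.5, from the median of their bin among 20 bins of abundance). They were recovered on data simulated under these same assumptions, which cannot show whether the authors' test met them. The standard error of a difference between paralogs joined those of both genes as if they were independent. Genes of the same libraries need not be, so these differences carry no test. Transcripts came from GENCODE release 29 (GRCh38), 1 principal coding transcript per gene, found for 10442 genes (99.4%), with 255 matched by older symbols or RefSeq synonyms. The GC trend was a polynomial of degree 3 over these genes. Protein identity was computed from translated coding sequences. The members, lists and roles were chosen with earlier results of these data known. Results for some other small GTPases are not reported here. Values are given for every Rab gene called, at least 1.5-fold apart, among the 5 highest in siCon footprints or with a measured paralog, and for up to 4 called members, by smallest adjusted p, of each other list. Python 3.11.15, numpy 2.4.6, scipy 1.17.1, pandas 2.3.3, Biopython 1.88 and matplotlib 3.10.9 were used.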

Additional observations from a re-analysis of the deposited data

How the results depend on the processing

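No paired analysis was possible because the tables hold 1 value per group and assay, and replicates could not be left out in turn for the same reason. The 8 higher and 0 lower TE calls became 10 and 2 at an adjusted p under 0.1, 3 and 0 under 0.01, 2 and 0 with the GC trend removed, 10 and 0 with median centring, and 6 and 0 among genes with mean RNA and footprint values of at least 1. Calls were lost by 5 of the 8 genes under 0.01 and by 6 with the GC trend removed. The 8 Rab genes with RNA at least 1.5-fold lower became 5 with a pseudocount of 0.1, 0 with a pseudocount of 1, 2 among the 14 genes whose mean RNA value was 1 or more, 7 with median centring, 6 with quantile normalization, and 4 with the GC trend removed, where 1 was at least 1.5-fold higher. The median RNA change of −0.22 became −0.060 with a pseudocount of 1 and −0.36 among those 14 genes. For footprints the 1 gene at least 1.5-fold higher became 0 with a pseudocount of 0.1, with a pseudocount of 1 and among genes with a mean of at least 1, and the 2 lower became 0 with a pseudocount of 1. A pseudocount shrinks changes of low values by its construction; for the GC trend the cause was not tested. The TE changes of the 8 called genes, and the RNA and footprint changes that were at least 1.5-fold, kept their sign under these alternatives. Smaller changes did not all do so: with the GC trend removed the TE change was −0.02 for RAB8B and −0.07 for RAB9B, and with median centring the footprint change of RAB22A was 0.06. With 1 value per group, small differences in RNA or footprints cannot be told from replicate error.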
